A study of Mus musculus with 4 samples.

Results

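Klf genes encode zinc finger transcription factors, and 10 of them were followed here across glucocorticoid receptor (GR) binding data from 2 kinds of mouse adipose progenitor: Klf2, Klf3, Klf4, Klf5, Klf6, Klf7, Klf9, Klf12, Klf13 and Klf15. A peak counted for a gene when the deposited table named that gene. Klf13 also counted peaks named for E030018B13Rik, a gene inside it. By this rule the PDGFRa+ list held 13 of its 10402 peaks at Klf genes, and the CD137+ table held 1 of its 30 genes, Klf13.

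GR-bound DNA was immunoprecipitated and sequenced (ChIP-seq) from adipose progenitors of C57BL/6 mice. The cells carried either CD137, the product of Tnfrsf9, or the platelet-derived growth factor receptor PDGFRa, and were enriched with magnetic beads, expanded and put through an adipogenic mix. Both kinds then received dexamethasone, a synthetic glucocorticoid, at 1 µM, so no library without it serves as a control. Each kind gave 1 GR immunoprecipitate and 1 input. The labels abbreviate the source tissue as SAT or VAT without tying either to a cell type, and give neither age nor sex. A peak of GR is not expression of a gene, so these files cannot check the cell labels against marker genes. With 1 library per cell type there was no replicate, and no test of a difference was possible. Read depth is unknown.

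Klf factors share fingers that recognise GC-rich and CACCC-type DNA, and differ in the co-repressors or co-activators that they recruit. In fat cell differentiation they act at several steps. Klf4, Klf5, Klf6, Klf9, Klf13 and Klf15 are known to favour it, whereas Klf2, Klf3 and Klf7 are known to restrain it. Klf9 and Klf15 are textbook glucocorticoid-induced genes in several tissues.

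Of the 10 Klf genes, 8 had at least 1 listed PDGFRa+ peak, and Klf9 and Klf15 had none. Among all 21900 protein-coding genes, 22.5% had one. That share goes by name alone, and by name alone 7 of the 10 Klf genes had a peak, since Klf13 counts through E030018B13Rik. The Klf genes were chosen with earlier results of these data known, so these counts describe them and support nothing further. Klf4 and Klf12 had 3 peaks each, Klf5 had 2, and Klf2, Klf3, Klf6, Klf7 and Klf13 had 1 each. Of the 4927 protein-coding genes with a peak, 13.4% had 3 or more.

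**Figure D1:**
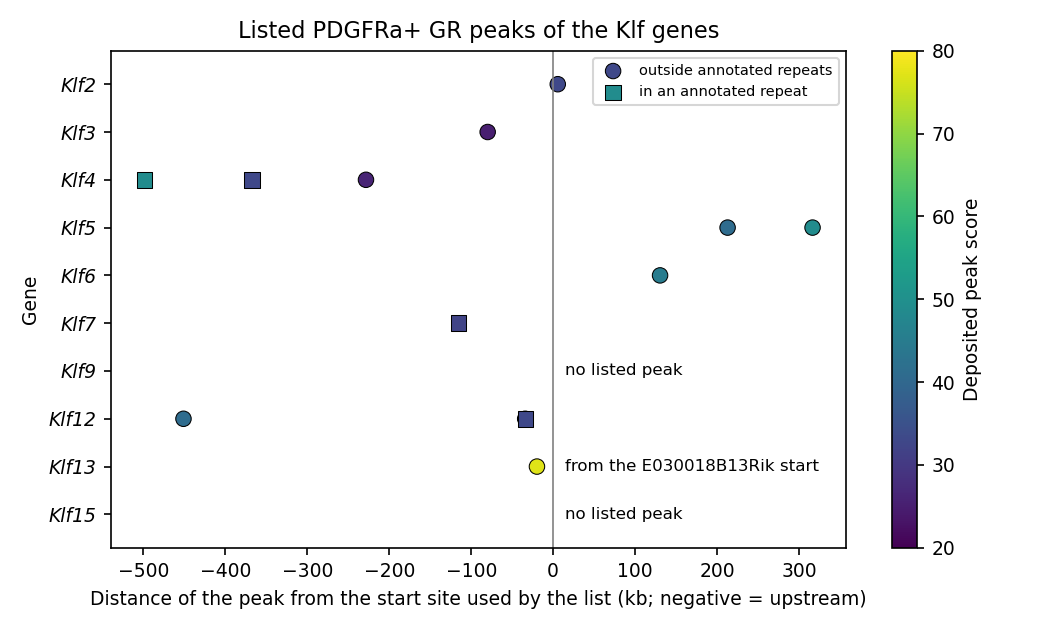
Each point is a listed PDGFRa+ peak, placed by its distance from the start site used by the list (x axis, kb, negative upstream) and its Klf gene (y axis), coloured by the deposited score, with squares for peaks in annotated repeats. Klf13 has the highest score, 77, and 8 of the 13 peaks lie more than 100 kb from the start site.

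Among the 10 Klf genes, Klf13 alone had a site found in both cell types. Klf13 encodes a repressor and activator of the same subgroup as Klf9 that binds GC-rich promoters, and in the pig it is known to act early in adipogenesis. In the CD137+ table an interval stood 41827 bp into the gene (chromosome 7, position 63897088, mm10), with a deposited peak value of 67. The gene runs from 63886351 to 63938915 on the minus strand, so the interval lay 79.6% of the way along it and 10737 bp before its end. A PDGFRa+ interval of the same table stood 41875 bp into the gene, 48 bp farther. All 30 interval positions of the table are multiples of 16, so the table places an interval no more finely than that.

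The separate PDGFRa+ list had a peak of 178 bp at the same site, with a score of 77 (chromosome 7, 71041866 to 71042043 in deposited coordinates, which are not those of mm10). The list names E030018B13Rik for it, because its start site was nearer, 19789 bp away. E030018B13Rik lies within Klf13 on the opposite strand (63916857 to 63920539, GRCm38). Measured through the 22058 bp between both start sites in GRCm38, the listed peak stood 41847 bp into Klf13, 20 bp from the CD137+ interval and 28 bp from the PDGFRa+ interval. The annotation column itself places the peak in intron 1 of 1 of the Klf13 transcript. A single PDGFRa+ immunoprecipitate underlies both the PDGFRa+ interval and the listed peak.

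**Figure D2:**
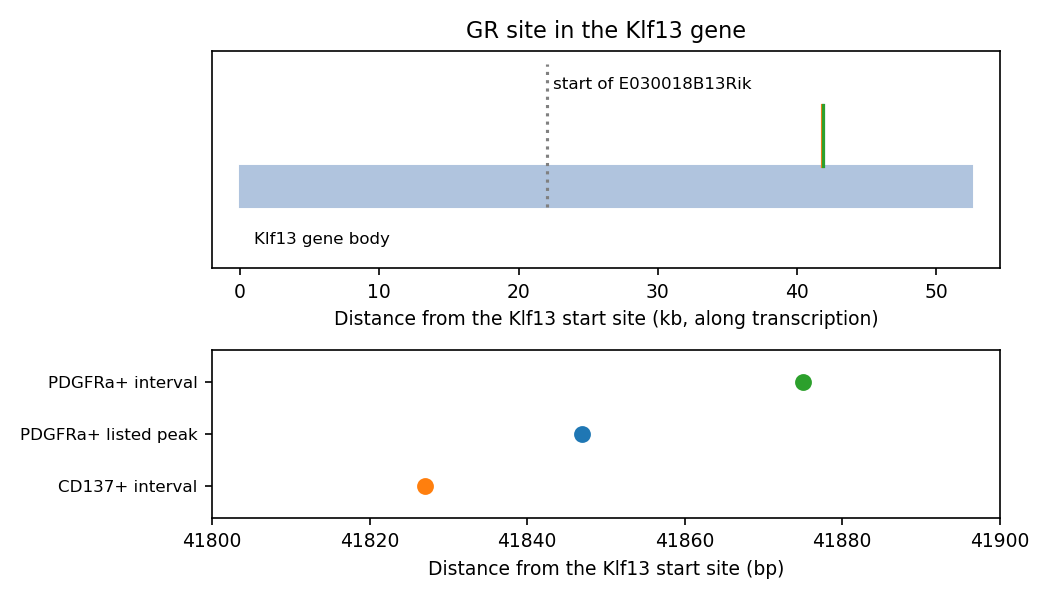
The upper panel draws the Klf13 gene body to scale with the start of E030018B13Rik (x axis, kb from the Klf13 start), and the lower panel enlarges the site (x axis, bp from the Klf13 start). The CD137+ interval at 41827 bp, the listed PDGFRa+ peak at 41847 bp and the PDGFRa+ interval at 41875 bp span 48 bp.

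The Klf13 site was among the higher values of both tables. Of the 23 CD137+ intervals 1 had a higher value than 67, and their median was 41.5. In the PDGFRa+ list 176 peaks, or 1.69%, scored 77 or more, and the median score was 33. Klf13, counted through E030018B13Rik, was also the single Klf gene with a score of 50 or more. By name alone no Klf gene had such a score, against 2.59% of protein-coding genes. The listed peak carries the CpG label in the detailed annotation, as 50 listed peaks do, 33 of them in introns. Of the 33 intron peaks with that label none other scored as high. Of all 50, 2 scored 77 or more, the Klf13 peak included, and their median score was 41. The CD137+ table gives 67 as the highest value at the site and names the CD137+ library for it, so the PDGFRa+ value there is not printed in that table. Values and scores are in the authors' own units, so 67 and 77 cannot be set against each other. Of all protein-coding genes, 0.114% were in the CD137+ table.

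By the rule of an interval in both libraries plus a listed peak within 500 bp of the same position, Apbb2 and Per1 were most like Klf13 over the 2 immunoprecipitates. Apbb2, the gene of an adaptor that binds the amyloid precursor protein, had a CD137+ value of 65, 2 below that of Klf13, and a listed peak scoring 60. Per1, a clock gene induced by glucocorticoids, had 52 and a listed peak scoring 38. The Per1 interval is also listed for its neighbour Vamp2.

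No other Klf gene was in the CD137+ table. Of the other 9, Klf5 alone had a CD137+ interval within 1 Mb of its start site. That interval stood 163.8 kb upstream of Klf5, inside its neighbour Pibf1, with a value of 49. The PDGFRa+ list also named Pibf1 for a peak, with a score of 41. That peak lay upstream of the Pibf1 start site used by the list. The exon annotated for it, 8 of 21 of a transcript, was therefore not taken as part of Pibf1. The peak stood 208968 bp upstream of the Klf5 start and so at another place than the CD137+ interval. Every gene of that table has a CD137+ interval. Absence from it says only that no such interval was listed for the other Klf genes, in 1 library of unknown depth. Weaker GR binding there stays unknown.

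The 12 Klf peaks outside Klf13 scored 25 to 49, and the list annotates each of them as intergenic. At or above the lowest of these scores, at Klf3, were 98.2% of listed peaks, and at or above 49, the highest, were 20.5%. With Klf13 included, the median Klf score was 33, the same as in the whole list, and 6 of 13 peaks scored above it. Intergenic peaks made up 92.3% of the Klf peaks (95% Wilson interval 66.7 to 98.6) against 56.3% of the list (55.3 to 57.2). These intervals cover counting error only, and peaks of 1 gene share a locus, so no test was made. Counting annotated transcripts as well as names, 85.7% of the Klf peaks were intergenic. The median distance to the start site was 130.4 kb for the Klf peaks and 47.3 kb for the list.

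**Figure D3:**
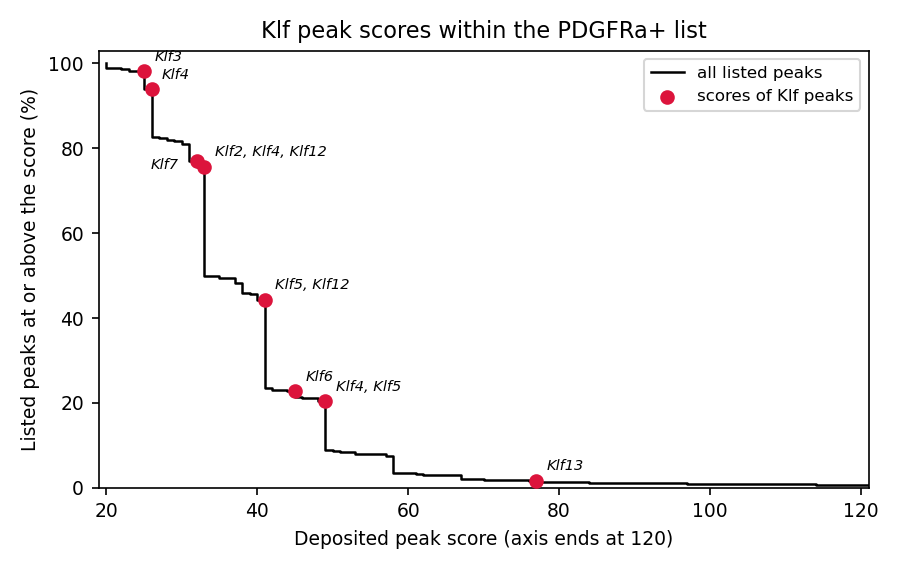
The line gives the percentage of all listed PDGFRa+ peaks at or above each deposited score (y axis) against that score (x axis, up to 120), and red points mark the scores of Klf peaks with their genes. Klf13 stands at 77, where 1.69% of peaks remain, and the other Klf peaks lie between 25 and 49.

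The peaks of Klf4, Klf5 and Klf6 all lay more than 100 kb from the start site. Klf4, a factor that switches on Cebpb soon after induction, had all 3 of its peaks upstream, at 228.4, 367.2 and 498.9 kb, with scores of 26, 33 and 49. The score was thus highest at the farthest of the 3, and the peaks at 367.2 and 498.9 kb lay in a LINE and a SINE repeat. Klf5, which acts with C/EBP factors to activate Pparg, had both of its peaks downstream, 212.8 kb from the start with a score of 41 and 316.4 kb from it with a score of 49. Klf6, a repressor of the preadipocyte gene Dlk1, had a peak 130.4 kb downstream with a score of 45. None of these 3 genes had a listed peak of any name within 100 kb of its start site.

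Klf5 and Klf12 are neighbours on chromosome 14, with start sites 851.1 kb apart in the deposited coordinates. The spacing in GRCm38 was the same to the base (851105 bp), although the positions themselves differ between the builds. Klf12 encodes a repressor first described at the gene of the transcription factor AP-2alpha. Between both start sites the list had 2 peaks, both named for Klf5, and upstream of Klf12 it had 3. A pair of these, scoring 33 each, lay 33.4 and 34.2 kb upstream and 717 bp apart, and the third, scoring 41, lay 451.0 kb upstream. The gene record of Klf12 in GRCm38 reaches 136.1 kb beyond the start site used here, so the pair that the list calls intergenic falls within the longer record. Downstream of the Klf12 start no peak was listed within 500 kb.

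**Figure D4:**
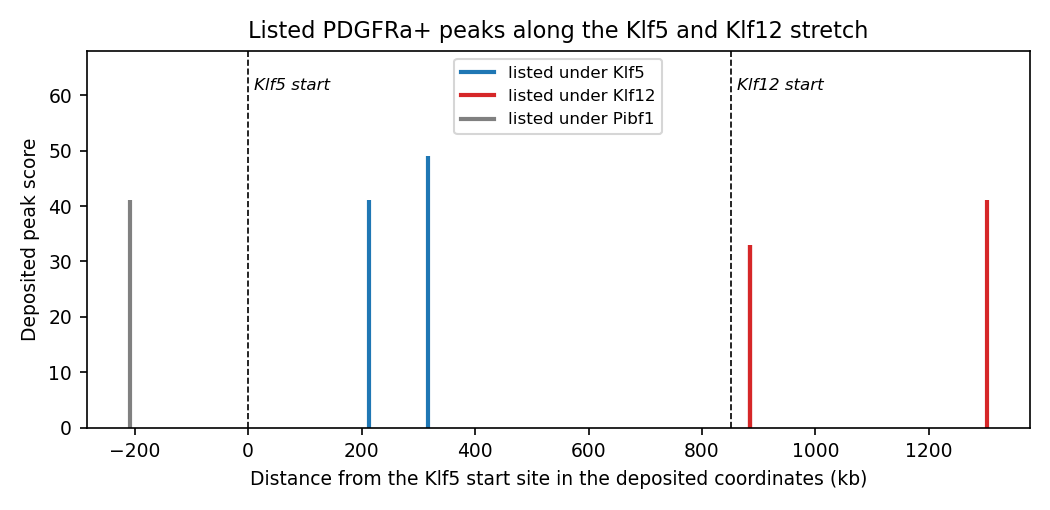
Each bar is a listed PDGFRa+ peak on chromosome 14, at its distance from the Klf5 start site (x axis, kb, deposited coordinates), with its height the deposited score (y axis) and its colour the gene it is listed under. Peaks listed under Klf5 score 41 and 49 and stand between both start sites, and those listed under Klf12 score 33, 33 and 41 and stand upstream of its start, where the pair 717 bp apart appears as 1 bar.

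Klf genes that restrain adipogenesis had 1 named peak each. So did Klf6 and, through E030018B13Rik, Klf13, and 67.1% of all protein-coding genes with a peak had 1. Klf2, known to repress the Pparg promoter, had a peak 5597 bp downstream of its start with a score of 33, the nearest to a start site of any Klf peak. Its position was chromosome 8, 74848415 to 74848702 as deposited, and the whole Klf2 gene is 2593 bp long, so the peak lay beyond the gene. Klf3, a repressor that recruits Ctbp co-repressors, had a peak 79.9 kb upstream with a score of 25, the lowest of the Klf peaks. Klf7, known to inhibit differentiation of human preadipocytes, had a peak 115.8 kb upstream with a score of 32, in a LINE repeat.

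Klf7 also had a peak that its name does not show. Intron 3 of 3 of the Klf7 transcript held a peak scoring 33, 80.6 kb downstream of the Klf7 start (chromosome 1, 64087286 to 64087431 as deposited). It was listed under Mir6899, a microRNA gene within Klf7 whose start was 1717 bp away. A second peak listed under Mir6899, with a score of 49, lay 100.2 kb from the Klf7 start and was annotated as intergenic. Mir6899 lies at 64042438 to 64042501 on chromosome 1 in GRCm38, on the minus strand like Klf7. Its mature RNAs are shown because this is the gene that the list names for the Klf7 intron peak; they are from RefSeq (GRCm38.p6), with the seed, bases 2 to 8, in capitals.
mmu-miR-6899-5p: aGCAGAACgcagcgggcauga
mmu-miR-6899-3p: uUGUCCUUcugugucuucugcag
Peaks inside one gene and listed under another were common, at 28.1% of the 4517 listed peaks whose annotated transcript had a gene. Counting annotated transcripts as well as names, 8 Klf genes had a peak as before, now with 14 peaks, against 25.0% of protein-coding genes.

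Klf9 and Klf15, both known to be induced by glucocorticoids, had no listed peak by name or by annotated transcript. The nearest genes with a peak on either side of Klf9 (chromosome 19) were Trpm3, an ion channel gene whose record ended 145.8 kb away, and 1700028P14Rik, 390.6 kb away. Their peaks scored 49 and 32. Those beside Klf15 (chromosome 6) were BC048671 at 155.6 kb and Nup210, a nuclear pore gene, at 521.3 kb, with scores of 33 and 49. All these distances are gaps between gene records and do not place the peaks. The list annotates the Trpm3 and Nup210 peaks as intron and those of 1700028P14Rik and BC048671 as intergenic. How far these peaks lay from Klf9 or Klf15 was not measured. A missing entry says only that no peak passed the authors' unstated threshold in 1 library of unknown depth.

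The share of genes with a listed peak was higher for genes with more room around them, taken as its length plus the stretch up to the midpoint of each gap to the next protein-coding gene. It was 10.4% for genes with up to 50 kb, 25.0% from 50 to 200 kb, 47.0% from 200 to 500 kb and 68.4% above 500 kb. Klf genes had a median of 307.1 kb, and 3 of them, Klf4, Klf6 and Klf12, had over 500 kb. Klf3, Klf5, Klf7 and Klf13 had 200 to 500 kb. With Klf13 counted through E030018B13Rik, 7 of the 8 Klf genes with a peak thus had over 200 kb. Klf9 with 119.0 kb and Klf15 with 75.9 kb had less, and Klf2 had a peak with 43.1 kb. The part of this room in the Klf count was not tested.

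**Figure D5:**
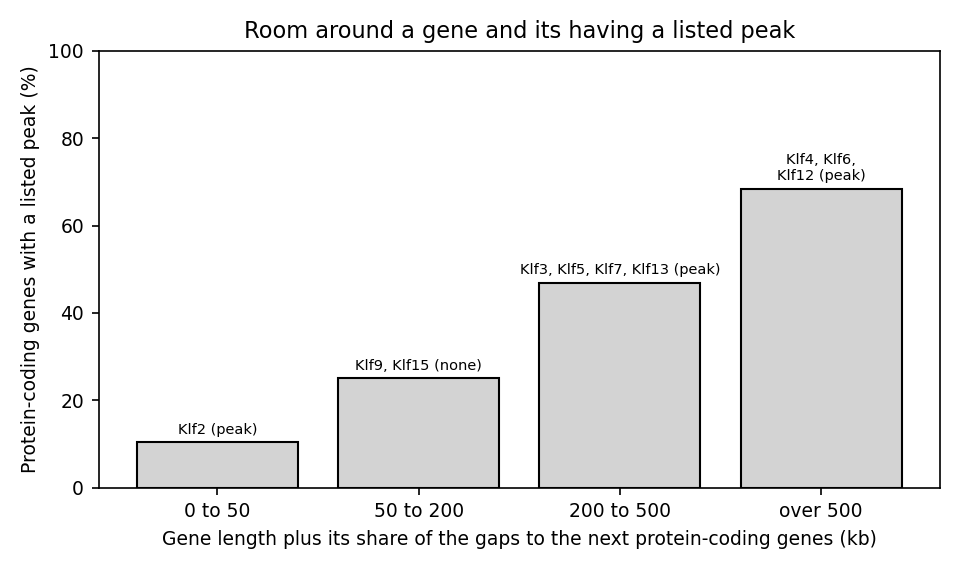
Bars give the percentage of protein-coding genes with at least 1 listed PDGFRa+ peak (y axis) in 4 classes of room around the gene (x axis, kb), with the Klf genes of each class above its bar. The share runs from 10.4% to 68.4%, and the 7 Klf genes in the upper 2 classes all have a peak, Klf13 through E030018B13Rik.

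Of the 13 Klf peaks, 5 lay within 100 kb of the start site, or 38.5% (95% Wilson interval 17.7 to 64.5), against 66.4% of the list. By gene, 4 of the 10 had a peak within 100 kb (Klf2, Klf3, Klf12 and, through E030018B13Rik, Klf13). By name alone 19.8% of protein-coding genes had one. Within 3 kb none of the 10 had a peak, against 3.39% of protein-coding genes. Of the Klf peaks 0 of 13 lay within 3 kb (95% Wilson interval up to 22.8%), against 8.83% of the list. Counting every listed peak within 100 kb of a start site, whatever its name, the 8 Klf start sites had 7 peaks in all, with a median of 1, and 3 had none. Across the 4167 protein-coding genes with a start site placed by the list, the median was also 1, and 10.3% had none. The list places a start site only through a listed peak at any distance. These values thus do not cover genes without a peak, such as Klf9 and Klf15. For Klf13 the start of E030018B13Rik was used, and its next peaks were those at Otud7a, 253.8 kb away with a score of 49, and at the Mir6416 promoter, 333.2 kb away with a score of 50.

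The promoter windows of RefSeq (GRCm38.p6, 250 bases before to 50 after the start) were searched for the GR element, the hexamer AGAACA followed by 3 free bases and its reverse complement. None of the 9 Klf genes with a window held it, against 3 of all 27025 genes, and none held the hexamer alone on either strand, against 21.3%. Klf5 was not matched. No match says only that these letters are not in this window, and no peak lay in the windows. The sequence under the peaks was not used here.

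Of the 17 Klf genes in the gene table, 9 had a peak, with Klf13 counted through E030018B13Rik, against 22.5% of protein-coding genes. Outside the 10 described above, Klf8 alone of 7 had one, with a score of 33 at 49395 bp downstream of its start, in a SINE repeat. Klf1, Klf10, Klf11, Klf14, Klf16 and Klf17 had none. Sp factors, whose zinc fingers are closest to those of Klf factors, had a peak in 4 of 9 genes, beside the same 22.5%. Sp3 and Sp5 each scored 58 at their strongest peak, Sp9 had 40 and Sp4 had 33. A peak in an intron of Sp1, scoring 33, was listed under Amhr2, and another in Sp4, scoring 41, under Dnah11.

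Genes whose products work with or act on Klf factors had a peak in 9 of 16, against 22.5% of protein-coding genes. Mecom, a zinc finger regulator, had 4 peaks up to a score of 58. Fbxw7, the substrate receptor of a ubiquitin ligase that marks Klf5, also had 4, up to 49. The co-repressor gene Ncor1 scored 49, at a peak 1437 bp from the start site. The acetyltransferase genes Ep300 and Crebbp scored 45 and 33, the deacetylase gene Hdac2 33, the co-repressor gene Ctbp2 28 and the ubiquitin ligase gene Wwp1 20. Sin3a, Sin3b, Ctbp1, Hdac1, Hdac3, Kat2b and Fhl3 had none by name, although a peak scoring 31 in an intron of Sin3b, the gene of a co-repressor scaffold, was listed under F2rl3. Named by a peak's own transcript were 8 of these 16 genes and 2 of the 10 Klf genes, Klf7 and Klf13, against 13.6% of protein-coding genes.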

How the data were processed

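Reads had been processed by the authors. Per the submitters' processing notes, the tools were SAMtools, MACS2, Bowtie2, FastQC and bedtools 2.17.0 and the build was mm10, without settings. Peak thresholds, use of the inputs and depth were not stated. The deposited CD137+ values are a peak signal in an unexplained unit, beside counts of intervals per gene, per the file headers. The deposited PDGFRa+ score is a whole number of unstated scale. Implied start sites lay within 1 kb of GRCm38 gene ends for 5.74% of 9111 peaks and 1 of 13 Klf peaks, so that list is on another build; its coordinates were left unconverted, and sites were compared by distance from start sites. Start site = peak centre minus signed distance for plus-strand genes, and peak centre plus signed distance for minus-strand genes. Strands came from the promoter table, or for Klf5 from its peaks.

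The members and lists were chosen with earlier results of these data known. All 10 members are named, and other listed genes where they hold a peak, except 1 co-regulator gene, which is counted but not reported here. Wilson intervals are 95%. Counting was tested on simulated data. Alternatives were score, distance, repeat, window and naming rules. Tools were Python 3.11.15, pandas 2.3.3, SciPy 1.17.1 and matplotlib 3.10.9. Inputs were not analysed here.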

Additional observations from a re-analysis of the deposited data

How the results depend on the processing

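With scores of 50 or more, 1 member gene, 1 member peak, 1 Klf family gene, 2 Sp genes and 1 co-regulator gene were left, against 2.59% of protein-coding genes; the share of intergenic member peaks was 0%, since Klf13 alone remained. With scores above the median of 33, there were 5 member genes, 6 member peaks, 5 Klf family genes and 5 co-regulator genes, against 13.2%. Within 100 kb there were 4 member genes, 5 member peaks and 5 Klf family genes, against 19.8%. Klf13 counted there through E030018B13Rik. Within 3 kb there were 0 member genes, 0 member peaks, 0 Klf family genes, 0 Sp genes and 1 co-regulator gene, against 3.39%. No share of intergenic member peaks could be given within 3 kb. These settings leave fewer peaks by construction. Rows named Klf13 were absent, so without E030018B13Rik 7 member genes had a peak and 100% of the member peaks were intergenic. Listed peaks around the member start sites numbered 4 within 50 kb, 14 within 200 kb and 1 with scores of 50 or more. Leaving out repeat peaks kept 7 member genes, against 16.3%. The Klf13 site was shared at windows of 200, 500 and 1000 bp. Of 44 alternatives, 22 moved a value beyond 1.5 times or out of its interval. The use of annotated transcripts was chosen after seeing the data. No paired analysis was possible because each cell type has 1 library. Unknown depth limits what a missing peak can show.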
